A study of Mus musculus with 8 samples.

Results

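The comparison set the 2 PS_Ca libraries against the 2 FS_Ca libraries, which are Rad21 chromatin immunoprecipitations from CH12F3 lines that keep different lengths of the immunoglobulin switch regions. Peaks of the 4 lists that overlapped by at least 1 bp were merged into regions. Regions on the end of chromosome 12 that holds the engineered Igh locus, and on chromosomes X, Y and M, were left out. This gave 41284 regions of 42821 before these exclusions, whereas all 8 libraries of the series gave 62901. A peak in all 4 Ca libraries was found in 8172 regions (19.8%), and only these could be compared for strength.

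The CH12F3 line comes from a mouse B cell lymphoma and can switch from IgM to IgA. FS_Ca lines carried a deletion from Cγ3 to Iα that left the Sγ3 and Sα switch regions at full length. PS_Ca lines carried a deletion between Sγ3 and Sα that left only part of each. Both were made in cells in which the non-coding IgH allele lacked VH to the 3′BCEs, and both were AID-/-. All had been stimulated for 72 h with anti-CD40, IL4 and TGF-β. The 4 other libraries, 2 of PS_Ia and 2 of FS_Ia, carried the same kinds of switch-region deletion in αInv cells and had the same treatment. The labels do not say whether a genotype is 1 clone or whether its 2 libraries stem from different cultures. All p-values therefore measure the spread between these libraries, which may be technical. The series concerns the part of chromatin structure in the orientation of joins between AID-initiated breaks.

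Rad21 is the kleisin subunit of cohesin, the ring-shaped complex that extrudes chromatin loops and pauses at CTCF bound to DNA. Peaks of Rad21 therefore mark mainly loop anchors and other places where cohesin lingers. Switch regions are long repetitive sequences in front of the constant-region genes of Igh, and in switching B cells cohesin brings them together with the enhancers downstream of Cα. The lists hold positions and no genes, so neither the cell type nor the deletions were checked against marker genes, and no region below is assigned to a gene.

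The 4 lists differed in length and depth within each genotype. PS_Ca replicates 1 and 2 had 30982 and 11288 peaks, and FS_Ca replicates 1 and 2 had 17212 and 31550. The genome-wide expected background recovered from each list, the only sign of depth in it, was 0.772 and 0.587 fragments in the PS_Ca and 0.394 and 0.731 fragments in the FS_Ca libraries. The median summit of the shared regions was 20 and 10 fragments high in PS_Ca and 11 and 17 in FS_Ca. Thus the long and the short list of each genotype stood further apart than the genotypes did. PS_Ca replicate 2 stood apart in 2 ways, with the shortest of the 8 lists and with 8.05% of its peaks on chromosome X, against 1.146% to 3.44% in the 7 others. The peak names began with 1 common prefix in all 4 FS libraries, with another in PS_Ca and PS_Ia replicate 1 and with yet another in PS_Ca and PS_Ia replicate 2. The labels do not say what a prefix stands for, and a difference between prefixes cannot be told apart from one of switch length. Past the Igh flank, peaks of PS_Ca replicate 2 and of FS_Ca replicates 1 and 2 were displaced by -101.3, -97.0 and -97.0 kb against PS_Ca replicate 1. On the rest of chromosome 12 they lined up to within 22 bp, and the displaced end is among the parts left out.

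Of the 41284 regions, 20924 (50.7%) had a peak in 1 library, 6900 in 2 and 5288 in 3. Of the single-library regions, 10375 came from FS_Ca replicate 2 and 9005 from PS_Ca replicate 1, the long lists, and 350 and 1194 from PS_Ca replicate 2 and FS_Ca replicate 1. Regions in all 4 libraries were broad and strong, with a median width of 1550 bp and a median percentile rank of 27.2, where 0 is the strongest peak of a list. Single-library regions were narrow and weak, with a median width of 321 bp and a median rank of 78.2. Of the 9341 regions held by both PS_Ca libraries, 87.5% were held by both FS_Ca libraries, and of the 12966 held by both FS_Ca libraries, 63.0% were held by both PS_Ca libraries.

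No single shared region passed the test for a difference in Rad21 strength between PS_Ca and FS_Ca. Strength was the log2 of the highest fold enrichment of a library in a region, which the peak caller gives at the summit over the expected background, centred on that library's median over the 8172 regions. The median difference, PS_Ca minus FS_Ca, was 0.04 on this log2 scale, with an SD over regions of 0.32 and a range from -1.19 to 1.56. A median near 0 follows from the centring and does not show that the libraries had the same strength. Limma, with Benjamini-Hochberg adjustment over the 8172 regions, called 0 regions higher and 0 lower in PS_Ca (0% called in either direction), and the lowest adjusted p was 0.998. At an unadjusted limma p under 0.05 there were 168 regions higher (2.06%) and 144 lower (1.76%) in PS_Ca. Without chromosome 16 the limma calls were again 0 and 0, with 167 (2.12%) and 84 (1.07%) of 7886 regions at an unadjusted p under 0.05. No library left out in turn gave a call in either direction. An exact two-sided permutation of 2 against 2 libraries cannot give a p below 0.333, so none is given for any value averaged over regions.

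Replicates of a genotype differed as much as the genotypes did. The median absolute difference per region was 0.32 between the PS_Ca replicates and 0.32 between the FS_Ca replicates. Across genotypes it was 0.26 between PS_Ca replicate 1 and FS_Ca replicate 2, the 2 long lists, 0.32 for both comparisons with FS_Ca replicate 1 and 0.35 between PS_Ca replicate 2 and FS_Ca replicate 2. Across regions, which share their libraries and are not independent, Pearson's r was 0.631 within PS_Ca, 0.641 within FS_Ca and 0.755 between the 2 long lists. The other 3 comparisons across genotypes gave 0.657, 0.624 and 0.567, of which the last was PS_Ca replicate 2 with FS_Ca replicate 2. The median standard error of a region's difference was 0.33, as large as the SD of the differences themselves. Both PS_Ca values lay above both FS_Ca values in 1366 regions (16.7%) and below them in 1141 (14%), and without chromosome 16 in 1358 (17.2%) and 983 (12.5%) of 7886. A difference of more than 1 on the log2 scale was seen in 27 regions higher and 8 lower in PS_Ca (together 0.428% of 8172). Without chromosome 16 it was seen in 26 higher and 3 lower (together 0.368% of 7886).

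Chromosome 16 was the part of the genome where the 2 genotypes separated most. Over its 286 shared regions, mean centred strength was -0.11 in PS_Ca replicate 1 and 0.02 in PS_Ca replicate 2, and 0.33 in FS_Ca replicate 1 and 0.33 in FS_Ca replicate 2. Both PS_Ca libraries lay below both FS_Ca libraries, and the gap between the nearest libraries was 0.30 against an SD between replicates of 0.10 in PS_Ca and 0.0043 in FS_Ca. The median difference was -0.36 (quartiles -0.59 and -0.18), which is a fold enrichment 0.779 times that of FS_Ca. PS_Ca was lower on average in 88.8% of the regions, both PS_Ca values lay below both FS_Ca values in 158 of 286 (55.2%, against 14% of all shared regions), and the opposite held in 8. At an unadjusted limma p under 0.05, 57 chromosome 16 regions were lower and 1 higher, and none passed the adjustment.

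**Figure D1:**
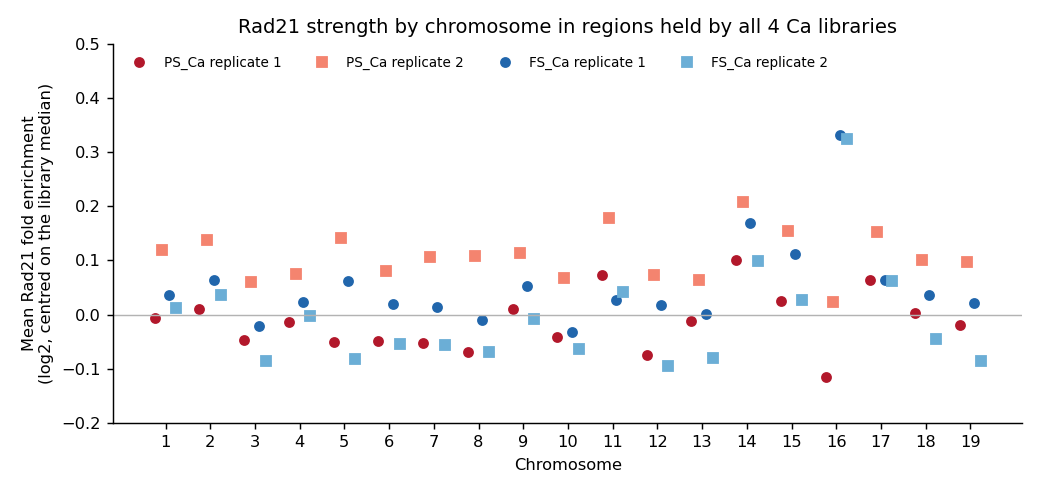
Mean Rad21 strength (y axis, log2 fold enrichment centred on the library median) of the regions held by all 4 Ca libraries on each of chromosomes 1 to 19 (x axis). Each point is 1 library, circles for replicate 1 and squares for replicate 2, red tones for PS_Ca and blue tones for FS_Ca; on chromosome 16 the PS_Ca points lie at -0.11 and 0.02 and both FS_Ca points at 0.33.

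The other 18 chromosomes showed no comparable separation. Their median differences ran from 0.01 on chromosome 15 to 0.09 on chromosome 11, and the share of regions with both PS_Ca values below both FS_Ca values ran from 10.5% on chromosome 17 to 15.2% on chromosome 14. Apart from chromosome 16, the library means of the 2 genotypes failed to overlap on chromosome 11 alone, where the nearest PS_Ca and FS_Ca libraries were 0.03 apart with PS_Ca higher. Leaving out PS_Ca replicate 2, the library that stood apart, gave a chromosome 16 median difference of -0.43, and leaving out PS_Ca replicate 1 gave -0.28.

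The lower values were spread over the windows of chromosome 16 that held enough regions. In windows of 10 Mb, 198 windows of the genome held at least 15 shared regions, and 7 of them lay on chromosome 16. All 7 had both PS_Ca means below both FS_Ca means, with medians from -0.17 to -0.45. The other 3 windows of the chromosome held 3, 8 and 7 shared regions, with medians of -0.0060, -0.27 and -0.47, and were not counted. Elsewhere 2 of the remaining windows did so, and the gap between the nearest libraries was over 0.1 in 6 windows lower in PS_Ca, all 6 on chromosome 16. Both PS_Ca means lay above both FS_Ca means in 43 of the 198 windows (21.7%). The gap was over 0.1 in 6 of these, of which 5 were the first 5 windows of chromosome 11.

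The first 50 Mb of chromosome 11 showed the opposite direction, with PS_Ca higher. This segment was chosen after its values were seen, so it is described without a test. Over its 192 shared regions, mean centred strength was 0.21 in PS_Ca replicate 1 and 0.33 in PS_Ca replicate 2, and 0.02 in FS_Ca replicate 1 and -0.13 in FS_Ca replicate 2. The groups did not overlap, and the median difference was 0.32 (quartiles 0.13 and 0.56), a fold enrichment 1.25 times that of FS_Ca. Both PS_Ca values lay above both FS_Ca values in 75 regions (39.1%, against 16.7% of all shared regions) and below them in 7. The other 515 shared regions of chromosome 11 had a median difference of 0.0050, and the 5 windows of the segment had medians from 0.19 to 0.40, whereas the next window along had -0.0094.

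**Figure D2:**
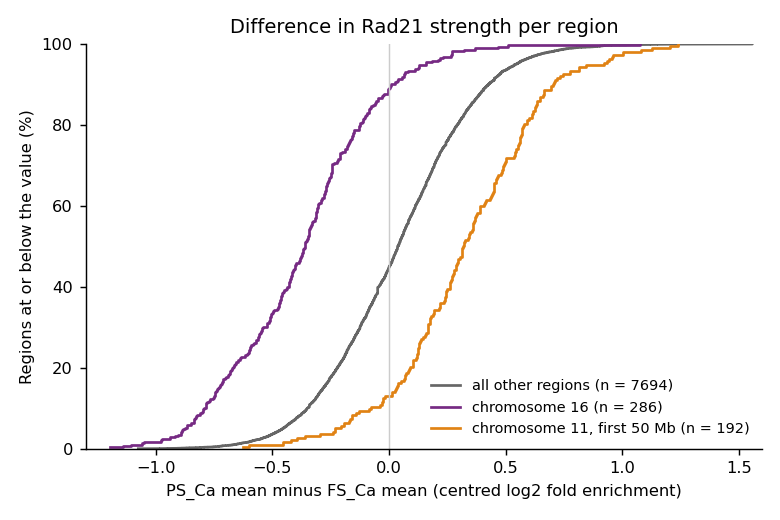
Cumulative share of regions (y axis, percent) at or below a given difference in Rad21 strength, PS_Ca minus FS_Ca (x axis, centred log2), for chromosome 16, the first 50 Mb of chromosome 11 and all other shared regions. The chromosome 16 curve is shifted to the left, with a median of -0.36, and the chromosome 11 segment to the right, with a median of 0.32.

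The number and width of peaks followed the same directions. Chromosome 16 held 3.19% and 3.06% of the peaks kept in PS_Ca replicates 1 and 2, and 4.99% and 5.68% in FS_Ca replicates 1 and 2. The first 50 Mb of chromosome 11 held 2.59% and 2.60% of the peaks in PS_Ca and 1.89% and 1.86% in FS_Ca. Neither pair of shares overlapped between genotypes. In the same shared regions, the mean log2 width of peaks, centred on each library's median, was -0.18 and -0.08 in PS_Ca and 0.32 and 0.34 in FS_Ca on chromosome 16, a difference of -0.46. It was 0.30 and 0.31 in PS_Ca and 0.01 and -0.17 in FS_Ca in the chromosome 11 segment, a difference of 0.38, while all regions off chromosome 16 differed by 0.03. Peak numbers, peak width and summit strength come from the same fragments, so the 3 measures are not independent.

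Set beside the Ia lines, the genotypes that stood out were different for the 2 segments. Over the 259 chromosome 16 regions with a peak in all 8 libraries, mean centred strength was -0.11 and -0.07 in PS_Ca, 0.28 and 0.31 in FS_Ca, 0.27 and 0.24 in PS_Ia and 0.24 and 0.25 in FS_Ia. The 2 PS_Ca libraries were low and the 6 others lay between 0.24 and 0.31. The difference of means, PS minus FS, was -0.39 in the Ca and 0.01 in the Ia lines. Within a prefix set, the mean of PS_Ca minus that of PS_Ia was -0.39 for replicate 1 and -0.32 for replicate 2. The share of peaks on chromosome 16 was 4.77% to 5.75% in the 4 Ia libraries.

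In the chromosome 11 segment it was the FS_Ca libraries that stood out. Over its 174 regions held by all 8 libraries, mean centred strength was 0.22 and 0.26 in PS_Ca, -0.05 and -0.14 in FS_Ca, 0.17 and 0.09 in PS_Ia and 0.15 and 0.16 in FS_Ia. The 2 FS_Ca libraries were low and the 6 others lay between 0.09 and 0.26. The difference of means, PS minus FS, was 0.33 in the Ca and -0.03 in the Ia lines, and the Ia libraries had 2.45% to 2.58% of their peaks in the segment. Numbers of chromosome copies, single clones and duplicate fragments were not measured in these lists, and their part in the values of either segment was not tested.

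**Figure D3:**
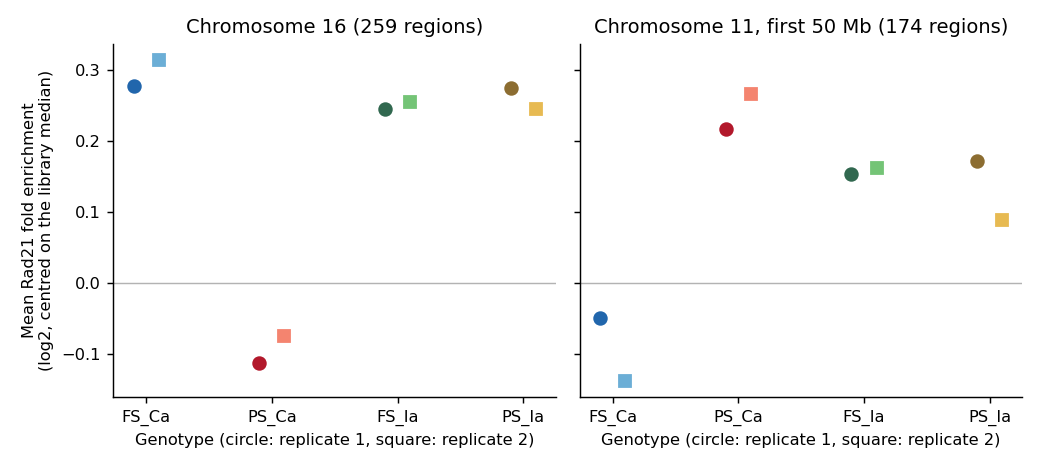
Mean Rad21 strength (centred log2 fold enrichment) of the 8 libraries over regions held by all 8, for chromosome 16 (259 regions) and the first 50 Mb of chromosome 11 (174 regions). Each point is 1 library; on chromosome 16 only the PS_Ca libraries lie below 0.24, and in the chromosome 11 segment only the FS_Ca libraries lie below 0.

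Whether a region's difference between PS and FS was larger in the Ca than in the Ia lines was tested region by region as an interaction. In the 6691 regions with a peak in all 8 libraries, limma with Benjamini-Hochberg adjustment called 0 regions in either direction (0% called), and the lowest adjusted p was 0.101. At an unadjusted limma p under 0.05, the Ca difference was higher in 167 regions (2.5%) and lower in 174 (2.6%). On chromosome 16, 34 of 259 regions were lower and 1 higher at that level. Leaving out FS_Ia replicate 1 gave 6 regions higher and 1 lower past the adjustment, leaving out PS_Ia replicate 2 gave 5 higher, and leaving out PS_Ca replicate 1 gave 2 higher.

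By strength, median differences were small in every class of shared regions. Shared regions were split by mean percentile rank into 4 classes of 2043, and from the strongest to the weakest class the median difference was 0.04, -0.0019, 0.01 and 0.08. Without chromosome 16 it was 0.05, 0.01, 0.02 and 0.09. The weakest class was the least even, with both PS_Ca values above both FS_Ca values in 19.8% of its regions and below them in 7.88%. Its mean centred strength was -0.60 and -0.33 in PS_Ca replicates 1 and 2 and -0.52 and -0.59 in FS_Ca replicates 1 and 2. By these means only PS_Ca replicate 2 lay above the FS_Ca libraries, and PS_Ca replicate 1 was the lowest of the 4. There the FS_Ca replicates were also furthest apart, by a median of 0.39, and the median summit in PS_Ca was 13 and 8 fragments high and that in FS_Ca 7 and 11. On chromosome 16 the medians by class were -0.36, -0.41, -0.42 and -0.25, so the lower values there were present in strong and weak regions.

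By width, medians were near 0 in every class, and lower on chromosome 16. The median difference was 0.07 in the 1416 shared regions up to 1000 bp wide, 0.03 in the 4453 up to 2000 bp, 0.01 in the 2160 up to 4000 bp and 0.01 in the 143 wider ones. Of these, 38, 141, 97 and 10 lay on chromosome 16, and their medians were -0.03, -0.36, -0.42 and -0.50. The median absolute difference between replicates was 0.24 to 0.42 over these classes. It carries no sign, whereas the class medians are signed and held near 0 by the centring, so the 2 cannot be compared in size.

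Among the regions with the highest folds, no difference between the 2 genotypes passed the test. In the 18 regions with a mean fold enrichment of at least 50, the difference ran from -0.21 to 0.33 with a median of -0.02. The highest of them, at chr2:98506290-98507599 in mm9, had folds of 273 and 237 in PS_Ca and 305 and 289 in FS_Ca. Its difference after centring was -0.16, with an SE of 0.34, and the groups overlapped. The next were chr9:2999904-3008888, chr9:3009126-3038401, chr9:35112712-35113284 and chr2:98502282-98503245, with differences of -0.13, -0.07, -0.02 and 0.05. Their SEs were 0.33 to 0.35, and chr9:3009126-3038401 was 29276 bp wide. The highest region was also high in the Ia libraries, with folds of 325 and 262 in PS_Ia and 394 and 354 in FS_Ia. The folds rest on 1 background per list, so they hold no correction for a local excess of fragments. A high fold alone therefore does not mark these places as the strongest cohesin sites. Whether they are loop anchors or gather fragments for another reason was not tested. The sign of these 5 differences depended on the processing, which is given with the limits.

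The Igh 3′ flank, where the enhancers and the CTCF-binding elements downstream of Cα anchor loops, held 3 regions with peaks in at least 2 libraries. The strongest, chr12:114457880-114462132, had folds of 15.2 and 7.56 in PS_Ca replicates 1 and 2 and of 13.6 and 16.8 in FS_Ca replicates 1 and 2. Its summits were 26, 11, 18 and 28 fragments high in the same order. The fold of PS_Ca replicate 1 was between those of the FS_Ca libraries, and only after centring on the library median did both PS_Ca values (0.36 and 0.13) fall below both FS_Ca values (0.66 and 0.69). The difference was -0.43 with an SE of 0.29, which did not pass the test (limma, adjusted p = 0.998). Each library left out in turn gave -0.31 to -0.55.

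The neighbouring region, chr12:114453661-114456961, had folds of 10.2 and 5.04 in PS_Ca and of 5.74 and 8.09 in FS_Ca. The groups overlapped, and the difference was 0.13 with an SE of 0.35, and 0.014 to 0.25 with a library left out. The third, chr12:114443606-114444205, had a fold of 8.46 in PS_Ca replicate 1, no peak in PS_Ca replicate 2 and folds of 5.02 and 6.35 in FS_Ca. A further 5 regions of the flank had a peak in 1 library each. At this depth, no difference in Rad21 was detectable at the flank between full-length and partial switch regions.

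Among single regions off the 2 segments, the largest difference with PS_Ca higher was at chr17:13498778-13499349. Its folds were 20.3 and 22.7 in PS_Ca and 10.0 and 5.78 in FS_Ca. The groups did not overlap, and the centred difference was 1.56 with an SE of 0.35 (limma, unadjusted p = 0.000201, adjusted p = 0.998). Without FS_Ca replicate 2 the difference was 1.02. In the Ia libraries the same region had folds of 8.01 and 19.3 in PS_Ia and 16.2 and 41.7 in FS_Ia. These PS_Ia and FS_Ia folds overlapped before centring.

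The next largest non-overlapping regions with PS_Ca higher had lower summits. At chr3:41914038-41915886 the folds were 14.1 and 9.45 in PS_Ca and 5.74 and 4.04 in FS_Ca, a centred difference of 1.32. At chr17:46268835-46269846 they were 11.3 and 10.7 in PS_Ca and 4.30 and 5.20 in FS_Ca, a difference of 1.28. In both regions every PS_Ca fold was above every FS_Ca fold, and the FS_Ca summits were 5 to 8 fragments high, near the lowest height that these lists hold, which is 4 and 5 fragments in the FS_Ca lists. The 10 largest non-overlapping regions with PS_Ca higher included 2 of the chromosome 11 segment, led by chr11:32224126-32225763. There the folds were 18.1 and 11.97 in PS_Ca and 4.30 and 9.82 in FS_Ca, a difference of 1.24. Without FS_Ca replicate 1, the lowest of the 4, that difference was 0.78.

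A pair of strong neighbouring regions on chromosome 8 were also among the 10. At chr8:19923202-19925569 the folds were 30.5 and 37.2 in PS_Ca and 15.8 and 15.6 in FS_Ca, a difference of 1.16. At chr8:19926300-19931099 they were 33.3 and 49.8 in PS_Ca and 18.7 and 20.2 in FS_Ca, a difference of 1.13. In both, PS_Ca replicate 2 had the highest value although its median summit was the lowest, and PS_Ca lay above FS_Ca with no overlap. Without PS_Ca replicate 2 the differences were 0.63 and 0.45, and without PS_Ca replicate 1 they were 1.69 and 1.81. In the Ia libraries the second of them had folds of 13.6 and 34.9 in PS_Ia and 17.0 and 51.5 in FS_Ia.

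Of the 10 largest differences with PS_Ca lower and no overlap between the groups, 7 lay on chromosome 16. The largest was chr16:33949482-33951897, with folds of 11.9 and 5.67 in PS_Ca and 15.1 and 25.4 in FS_Ca and a difference of -1.19 with an SE of 0.30. At chr16:4314504-4316578 the folds were 14.7 and 5.67 in PS_Ca and 20.1 and 22.0 in FS_Ca, a difference of -1.14. Both PS_Ca values were lower in each, and the Ia libraries had folds of 15.4 to 27.0 in the first and 21.0 to 31.7 in the second. The largest off chromosome 16 was chr17:27656603-27659100, with folds of 20.3 and 4.41 in PS_Ca and 20.8 and 20.8 in FS_Ca. There PS_Ca replicate 1 was close to FS_Ca and the difference of -1.07 came from PS_Ca replicate 2, without which it was -0.36.

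**Figure D4:**
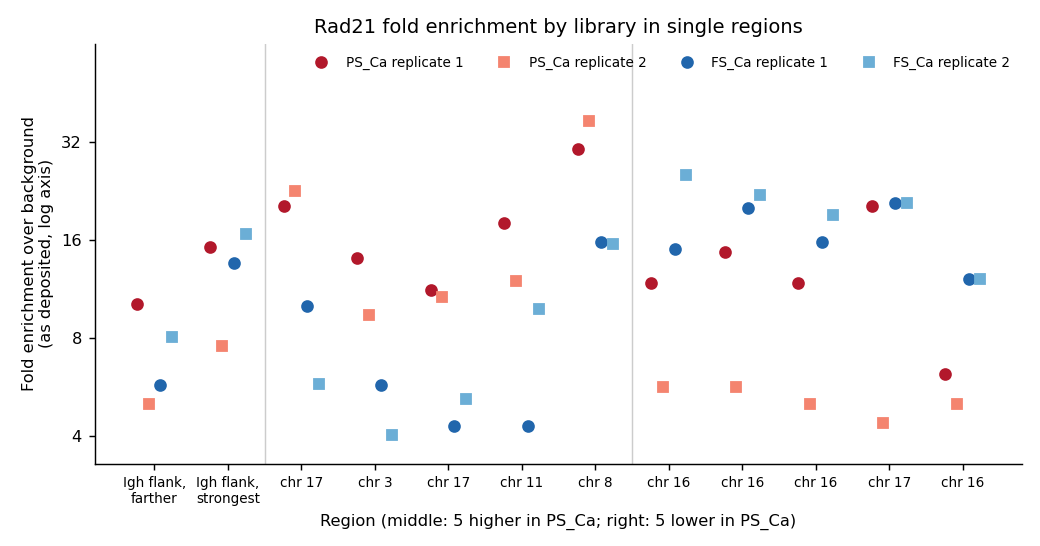
Fold enrichment over background as deposited (y axis, log scale) in each of the 4 Ca libraries for 12 regions. On the left are 2 of the Igh 3′ flank. In the middle are 5 with PS_Ca higher (the 4 largest non-overlapping differences and 1 of the chromosome 8 pair). On the right are the 5 largest non-overlapping differences with PS_Ca lower. Circles are replicate 1 and squares replicate 2; PS_Ca replicate 2 has the highest fold at the chromosome 8 region (37.2) and the lowest at each region lower in PS_Ca.

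Presence in both libraries of one genotype and in neither of the other was rare. It held for 228 regions in PS_Ca (0.552%) and for 447 in FS_Ca (1.08%), and without chromosome 16 for 225 (0.573%) and 360 (0.916%). These were weak and narrow: the median width was 488 bp in the PS_Ca-only and 507 bp in the FS_Ca-only list, and the median percentile rank 63.4 and 65.9. The median summits were 9 and 8 fragments high in PS_Ca and 6 and 8 in FS_Ca, and 2 and 4 regions of the lists had a mean percentile rank under 25. Against 4 libraries of such unequal length these counts depend on single lists: leaving out PS_Ca replicate 2 gave 9233 PS_Ca-only regions, leaving out FS_Ca replicate 1 gave 10822 FS_Ca-only regions, and taking the strongest peaks alone as present gave 41 and 34.

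Many of these regions had a peak in some Ia library. Of the 228 PS_Ca-only regions, 44 had no peak in any Ia library and 8 had one in all 4. Of the 447 FS_Ca-only regions, 56 had none and 36 had one in all 4, of which 14 lay on chromosome 16.

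Chromosome 16 held 87 of the 447 FS_Ca-only regions (19.5%) and 3 of the 228 PS_Ca-only regions, while 4.82% of all merged regions lay there. The FS_Ca-only share of its regions was 4.38%, and on the other 18 chromosomes it was 0.328% to 1.64%. The first 50 Mb of chromosome 11 held 13 PS_Ca-only and 3 FS_Ca-only regions of 895. Both segments thus had the same direction in presence as in strength. Presence was read on other regions but from the same libraries, and it depends on peak strength, so these measures are not independent.

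**Figure D5:**
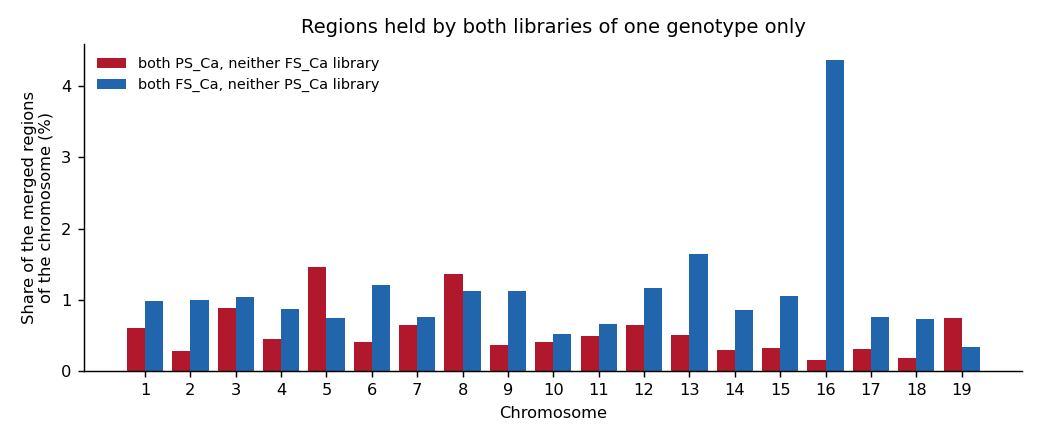
Regions with a peak in both libraries of one genotype and neither of the other, by chromosome (x axis), as a percentage of all merged regions of that chromosome (y axis). FS_Ca-only regions reach 4.38% on chromosome 16 and at most 1.64% elsewhere, and PS_Ca-only regions are most frequent on chromosomes 5 (1.46%) and 8 (1.36%).

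The PS_Ca-only regions of chromosomes 5 and 8 lay in tight clusters. On chromosome 5, 21 of 37 lay between 14908330 and 15202409, where the full lists had 94 and 146 peaks in PS_Ca, 96 and 45 in FS_Ca and 37 to 47 in the Ia libraries. On chromosome 8, 13 of 28 lay between 19722190 and 19991419, where the lists had 65 and 80 peaks in PS_Ca, 44 and 44 in FS_Ca and 24 to 60 in the Ia libraries. PS_Ca replicate 2, the shortest list, had the most peaks in both clusters. The pair of strong chromosome 8 regions described above lies inside the chromosome 8 cluster, so the pair and the cluster are not separate observations. In shared regions of the 10 Mb window around the chromosome 5 cluster, mean centred strength was -0.46 and 0.49 in PS_Ca and -0.12 and -0.66 in FS_Ca, so the replicates were further apart than the genotypes and the groups overlapped. These clusters were noticed after their values were seen.

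The best-ranked region with peaks in PS_Ca only was chr14:116958860-116960212, with folds of 26.0 and 9.45. It had a peak in 1 PS_Ia and 1 FS_Ia library, with folds of 11.8 and 11.4. The next, chr5:15158786-15159757, was part of the chromosome 5 cluster and had folds of 9.03 and 11.97, and chr12:79451839-79452120 had 7.34 and 9.45. In FS_Ca only, the best-ranked region was chr10:79371555-79371884, with folds of 18.7 and 6.93 and no peak in any Ia library. It was followed by chr13:83864203-83865107, with folds of 11.5 and 7.51 and a peak in all 4 Ia libraries (8.99 to 13.2). Of the 8 best-ranked FS_Ca-only regions, 3 lay on chromosome 16. For 2 of these all 4 Ia libraries had a peak: chr16:21538626-21539913, with folds of 10.0 and 8.09 in FS_Ca and 6.98 to 8.99 in the Ia libraries, and chr16:4550706-4551707, with 8.61 and 9.82 in FS_Ca and 7.40 to 12.3 in the Ia libraries.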

How the data were processed

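The labels' protocols describe cross-linking with 1% formaldehyde, sonication, precipitation with an anti-Rad21 antibody (ab992), Tn5 tagmentation on the beads and paired-end sequencing. The submitters' processing notes list the mm9 build and the tools MACS2 2.2.7.1, Bowtie2 2.4.4, deepTools 3.5.1 and SAMtools 1.15.1. Peak thresholds, read filters and controls are not stated in these sources. There is 1 deposited list of peaks for every library, so calling was done separately and replicates were not pooled.

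For every peak the authors deposited a summit position, a score, the −log10 of its p-value and of its q-value, and a fold enrichment, which is a ratio of the summit to the expected background. The deposited folds are the authors' own values per peak. They equalled (height + 1) over (background + 1) with 1 background per list, and all heights came out whole within 0.001. Folds of different libraries are not on a common scale, so each was centred on its library median over the regions compared, which removes any difference shared by all regions. Intervals of depth are not given, since a list holds only peaks that passed the caller.

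Regions were compared with limma 3.58.1 (trended empirical Bayes, no covariate) in R 4.3.3, and the rest was computed with pandas 2.3.3, numpy 2.4.6 and matplotlib 3.10.9 under Python 3.11.15. The procedure was tested on simulated data with planted changes and counting error alone. These had no other spread between replicates, so they do not give the power or error in these libraries. Calls were made at a Benjamini-Hochberg adjusted p of 0.05 or less. The members, the rules and the lists were chosen with earlier results of these data known. Named regions were those of the Igh 3′ flank with peaks in at least 2 libraries, the 10 largest non-overlapping differences per direction, the 8 best-ranked regions specific to each genotype, with 4 more from outside chromosome 16 where needed, and the 5 with the highest mean fold. The leading ones of each are described.

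Alternatives were another normalization, heights without the added 1, no trend, a stricter −log10 q of at least 5, lists of equal size, regions from summits ± 100 bp, presence in the strongest peaks alone, each library left out in turn and replicate numbers as a block. Crossed numbers, segments left out and the chromosome 11 segment were chosen after seeing the data. The only annotation at hand is of another build than mm9, so no gene was assigned and no sequence is shown.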

Additional observations from a re-analysis of the deposited data

Results flagged for a closer look

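At chr17:13498778-13499349, the difference between partial and full-length switch regions had opposite signs in the Ca and Ia lines, without passing the interaction test. Merged over all 8 libraries, this region started at 13498742. PS minus FS was 1.56 in the Ca and -1.17 in the Ia lines on the centred log2 scale over the regions held by all 8 libraries, a difference between the 2 contrasts of 2.73. This was the smallest unadjusted p of the 6691 interactions tested with limma (1.51e-05), and it failed the Benjamini-Hochberg adjustment (limma, adjusted p = 0.101). The folds were 20.3 and 22.7 in PS_Ca, 10.0 and 5.78 in FS_Ca, 8.01 and 19.3 in PS_Ia and 16.2 and 41.7 in FS_Ia. Both PS_Ca folds lay above both FS_Ca folds, while the PS_Ia and FS_Ia folds overlapped before centring.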

How the results depend on the processing

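The chromosome 16 median difference of -0.36 kept its sign under all settings run, between -0.28 (without PS_Ca replicate 1) and -0.43 (without PS_Ca replicate 2), and that of the chromosome 11 segment of 0.32 ran from 0.27 to 0.39. Calls of single regions were 0 in both directions under the 16 settings of the fit except the blocks, so also 0 with each library left out. Interaction calls with a library left out ran from 0 to 6 higher and from 0 to 1 lower.

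Replicate numbers as a block gave 1 region higher in PS_Ca, chr17:13498778-13499349 (limma, adjusted p = 0.0389), and 0 lower, and 4 interaction regions higher. Same-numbered Ca libraries deviated in opposite directions (correlation -0.228). Replicate 1 was the long list in PS_Ca and the short list in FS_Ca, so this value cannot show whether the numbers pair libraries. The labels do not say so either. Crossed pairing, chosen after seeing the data, gave 5 regions higher and 2 lower.

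The 228 PS_Ca-only regions became 364 with lists of equal size, 344 with regions from summits, 41 with presence in the strongest peaks and 527 to 9233 with a library left out. They were 192 without the chromosome 5 and 8 windows. The 447 FS_Ca-only regions became 214 at −log10 q of at least 5, 841 from summits, 34 with presence in the strongest peaks and 499 to 10822 with a library left out. A library left out makes presence easier to meet by construction. The cause of the other changes was not tested.

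Of 384 values of the named regions under alternatives, 362 kept side and direction, 7 passed the threshold in the same direction and 15 changed sign. All 7 came from the blocks, most of them from the crossed pairing chosen after seeing the data. All 15 were in the 5 highest-fold regions. Quantile normalization gave 0.010 at chr2:98506290-98507599, 0.010 at chr9:3009126-3038401 and 0.10 at chr9:35112712-35113284, which was 0.044 with lists of equal size, and the stricter −log10 q gave -0.00086 at chr2:98502282-98503245. With a library left out they ran from -0.44 to 0.12 at chr2:98506290-98507599, -0.40 to 0.15 at chr9:2999904-3008888, -0.43 to 0.29 at chr9:3009126-3038401, -0.47 to 0.44 at chr9:35112712-35113284 and -0.42 to 0.52 at chr2:98502282-98503245. The summits of these 5 regions were 284 to 499 fragments high, and the cause of their changes of sign was not tested. For shared regions in general, with median summits of 10 to 20 fragments, counting error alone is large for a single region.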

Other observations

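Other regions with small unadjusted p in the interaction of switch length with Ca and Ia lines, chosen after their values were seen, were chr13:74666006-74668408 and chr17:13743442-13746107. In the first, the folds were 22.6 and 27.1 in PS_Ca, 13.6 and 10.4 in FS_Ca, 5.55 and 23.1 in PS_Ia and 21.7 and 45.8 in FS_Ia, an interaction of 2.70 (limma, adjusted p = 0.105). In the second, they were 60.9 and 56.1 in PS_Ca, 44.5 and 28.9 in FS_Ca, 26.5 and 47.3 in PS_Ia and 61.9 and 112 in FS_Ia, an interaction of 2.11 (limma, adjusted p = 0.177). In both, the PS_Ca folds lay above the FS_Ca folds, and the PS_Ia folds of replicate 1 were the lowest of the 8.

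The opposite sign was seen at chr16:19145765-19148403. Its folds were 14.7 and 5.04 in PS_Ca, 11.5 and 19.6 in FS_Ca, 29.6 and 29.0 in PS_Ia and 11.6 and 13.1 in FS_Ia, an interaction of -1.88 (limma, adjusted p = 0.561). The PS_Ca and FS_Ca folds overlapped there before centring, and both PS_Ia folds were the highest of the 8. On the centred scale, PS minus FS was -0.74 in the Ca and 1.14 in the Ia lines.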
